A study of Mus musculus with 6 samples.

Results

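The genes described here are the receptor, kinase and transcription factor of the leukaemia inhibitory factor (LIF) pathway with 6 genes known as its targets: Lifr, Il6st, Jak1 and Stat3 on one side, and Socs3, Bcl3, Junb, Mras, Pim1 and Pim3 on the other. Probe sets were taken by gene symbol, whatever their values. All 26 carrying 1 of the 10 symbols were used, out of 45037 probe sets of an Affymetrix mouse expression array, a probe set being a group of short oligonucleotides against 1 transcript region. Of these, 25 were bright enough to be tested, among 27022 probe sets and 12740 genes in all. The cells were of the R1 line of mouse embryonic stem cells, transduced with a lentivirus and sorted on GFP. In 3 arrays the lentivirus expressed a short hairpin RNA (shRNA) against luciferase, which served as the control, and in 3 arrays it expressed KIAA1718 shRNA1, against the histone demethylase gene now called Kdm7a. No other genotype, treatment, time point or culture condition is named in the labels, so the supply of LIF to these cells is not known here. A single hairpin stood for the targeted gene, and nothing says that the 3 arrays of a group came from separate infections; p-values therefore measure only the spread between these arrays, which may be technical.

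LIF is a cytokine that keeps mouse embryonic stem cells in self-renewal. It binds the LIF receptor (Lifr), which pairs with a signalling subunit shared by the interleukin 6 family of cytokines (Il6st), and the kinase Jak1 on the receptor tails then phosphorylates the transcription factor Stat3. Phosphorylated Stat3 dimerises, enters the nucleus and binds DNA at the palindrome TTCNNNGAA, where it activates genes of naive pluripotency and also Socs3, whose product turns the receptor off. Because the switch is a phosphorylation, the RNA level of the receptor and kinases does not report the activity of the pathway. The RNA of its targets is the nearer readout.

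The deposited signals were not on 1 scale, with array medians from 9.58 to 13.3, and differences below were therefore computed after quantile normalization, as log2(signal + 16). Signals are quoted as deposited. The embryonic stem cell markers Pou5f1, Sox2, Nanog and Zfp42 had mean signals from 726 to 1969 in both groups. Nanog had 922 in controls and 726 with KIAA1718 shRNA1. On the normalized log2 scale the mean of 11 such markers was 10.09, 10.15 and 10.14 in control replicates 1, 2 and 3. It was 9.94, 9.76 and 9.88 in the KIAA1718 shRNA replicates. Of these 11, 10 were below 0 in the comparison, with a median of -0.16. The 2 that passed were both lower, Esrrb at -1.16 and Utf1 at -0.44, while 2.19% of all genes were lower. Fibroblast markers were also present on every array: the mean of 32 of them on the normalized log2 scale was 7.64, 8.38 and 8.35 in control replicates 1, 2 and 3 and 7.54, 7.84 and 7.89 in the KIAA1718 shRNA replicates. Of these 32, 30 were below 0 in the comparison, with a median of -0.34 and a range from -1.53 to 0.26. Only 1 passed the threshold, Pdgfra at -0.71. Pdgfra is also on the list of primitive endoderm markers below, so this call is not a separate one. With replicate pairing 13 of the 32 were lower, in a fit by which 3.78% of all genes were lower. The collagen gene Col1a1 had signals of 126, 399 and 505 in controls and 104, 50.7 and 193 with KIAA1718 shRNA1, and Thy1 was at -0.62 (adjusted p = 0.0572). Among 13 tested markers of primitive endoderm, 5 passed, all lower, against 2.19% of all genes in that direction. These 5 included Sox7 at -0.85, Lamc1 at -0.84, Pdgfra again and Dab2 at -0.59. The mean of the 13 was 6.62 to 6.88 in controls and 6.32 to 6.38 in KIAA1718 shRNA arrays. Whether other cell types take part in the differences below was not tested. A refit with the fibroblast mean as a covariate left none of the 5 primitive endoderm calls. Of the 2 stem cell markers, it left Esrrb alone past the threshold. Over all genes the same refit left 201 calls, against 620 in the main fit, and the fibroblast and primitive endoderm lists share Pdgfra and Sparc. Values from this refit that bear on a result are given with that result. The targeted gene itself gave no check of the labels, since the brightest Kdm7a probe set had signals of 33.3, 31.2 and 44.9 in controls and 40.9, 23.8 and 34.9 with KIAA1718 shRNA1 (adjusted p = 0.533, limma).

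Of the 10 genes, Mras and Bcl3 fell and the other 8 did not pass the threshold of an adjusted p of 0.05 (limma, Benjamini-Hochberg over all probe sets tested). Mras fell by 1.12 ± 0.12 and Bcl3 by 0.86 ± 0.15 (log2 difference ± SE, n = 3 per group), so that the normalized level with KIAA1718 shRNA1 was 0.459 and 0.551 of the control. Both are targets, and none of the receptor and kinase genes passed. Over all 12740 genes, 2.19% were lower and 4.87% changed in either direction by the same rule. By probe set, 3 of the 25 tested passed, all lower, against 1.74% of all tested probe sets. With 10 genes chosen while earlier results of these data were known, the count of 2 describes them and tests nothing.

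**Figure D1:**
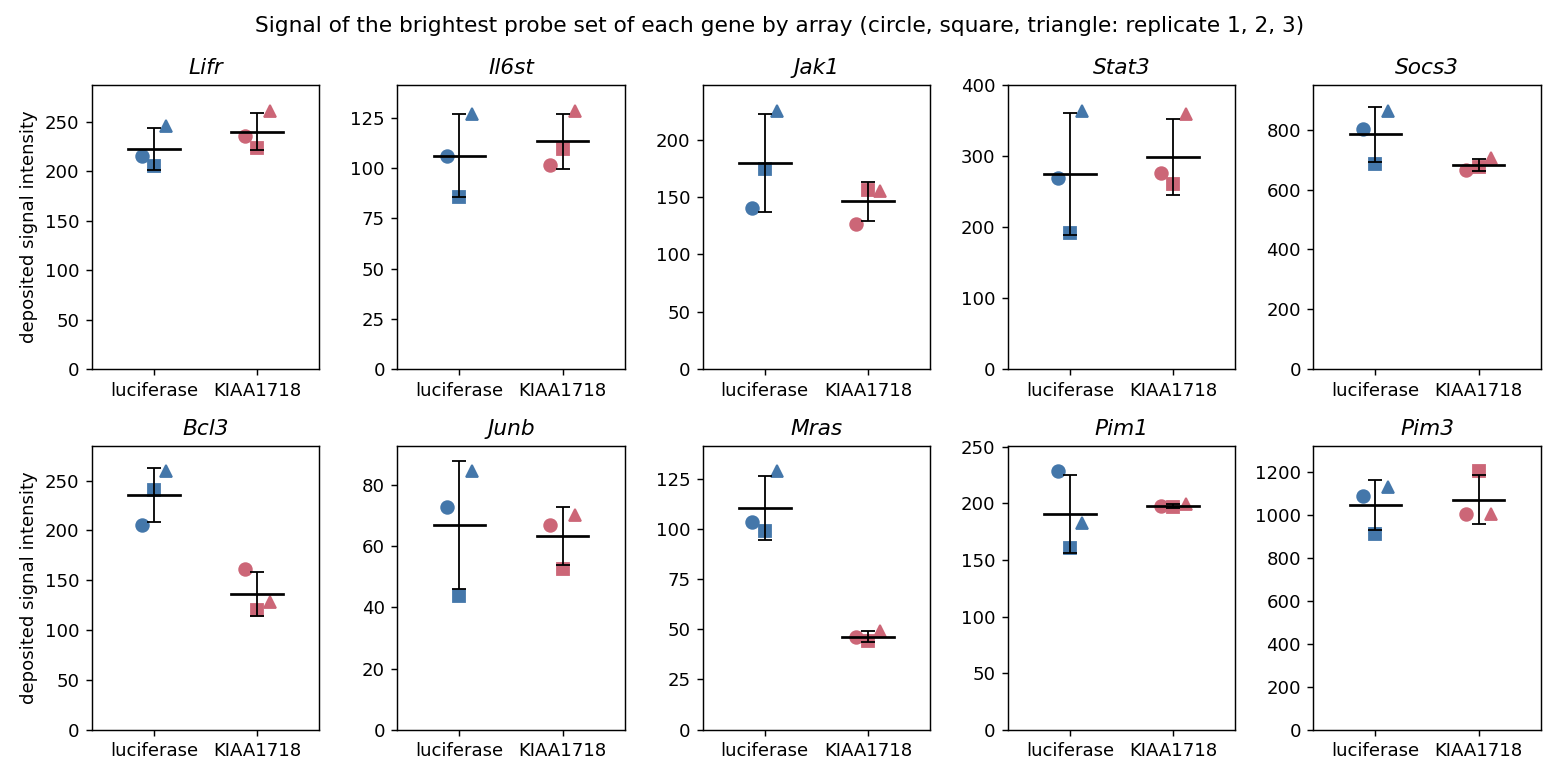
Deposited signal intensity (y axis, from 0) of the brightest probe set of each gene on the 6 arrays, luciferase shRNA in blue and KIAA1718 shRNA1 in red, with horizontal lines for group means and bars for the SD (n = 3). The groups are apart for Bcl3 (lowest control 206, highest KIAA1718 shRNA1 array 162) and Mras (98.8 and 49.1) and overlap for the other 8 genes. How often groups were apart over all genes was not counted on deposited signals.

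The promoters of the genes that fell are shown next to that of Socs3, the textbook Stat3 target, because the data bear on these 3 genes first. Each line gives the 250 bases before the annotated transcription start, 5′ to 3′ on the gene's strand, from RefSeq on GRCm38.p6. Capitals mark a match to TTCNNNGAA.
Socs3, chr11:117969367-117969616, minus strand: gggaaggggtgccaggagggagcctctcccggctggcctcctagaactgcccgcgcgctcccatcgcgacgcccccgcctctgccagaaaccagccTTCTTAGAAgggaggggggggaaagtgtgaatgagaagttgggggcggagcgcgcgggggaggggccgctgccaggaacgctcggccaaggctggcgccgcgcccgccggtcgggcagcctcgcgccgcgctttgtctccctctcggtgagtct
Bcl3, chr7:19822756-19823005, minus strand: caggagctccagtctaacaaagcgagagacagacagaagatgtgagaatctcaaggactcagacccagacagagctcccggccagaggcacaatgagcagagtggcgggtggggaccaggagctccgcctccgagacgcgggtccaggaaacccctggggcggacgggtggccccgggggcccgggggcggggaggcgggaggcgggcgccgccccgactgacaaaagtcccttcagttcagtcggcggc
Mras, chr9:99436713-99436962, minus strand: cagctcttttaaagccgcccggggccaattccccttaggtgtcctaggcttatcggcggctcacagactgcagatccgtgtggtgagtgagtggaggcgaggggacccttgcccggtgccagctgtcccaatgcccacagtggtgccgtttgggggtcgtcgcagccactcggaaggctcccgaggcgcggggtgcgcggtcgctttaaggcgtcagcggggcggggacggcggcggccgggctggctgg
The motif TTCNNNGAA is its own reverse complement, so a match lies on both strands. Windows of 300 bases, from 250 before to 50 after a start, were searched for all 10 genes, 2 of which (Lifr and Pim1) had 2 windows. Of these 12 windows 1 held the motif, that of Socs3, whose TTCTTAGAA begins 154 bases before the start. Over all 32851 windows, 8.30% held it. The same ends set 4 bases apart instead of 3 were found in none of the 12 windows and in 6.95% of all. These are letter matches in a short stretch and say nothing on where Stat3 binds. The 3 printed promoters were rich in G and C, which made up 71.6% of the Socs3, 67.6% of the Bcl3 and 68.4% of the Mras stretch. They held 26, 19 and 24 CpG dinucleotides, against a median of 52.4% and 6 CpG over the same stretch of all windows. This is not particular to them. Among the other members G and C ran from 48.0% (second window of Pim1) to 82.4% (first windows of Lifr and Pim1), with Pim3 at 68.0%.

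Lifr encodes the LIF-binding receptor chain. Its brightest probe set, 1454984_at, had signals of 216, 205 and 246 in control replicates 1, 2 and 3 and 236, 224 and 261 in the KIAA1718 shRNA replicates. The groups overlapped, and after normalization the difference was -0.04 (95% interval -0.26 to 0.19, limma adjusted p = 0.888). This interval leaves out a change as large as that of Mras or Bcl3. Its 2 dimmer probe sets, with control means of 21.6 and 9.73, differed by 0.13 and 0.04 and did not pass.

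Il6st encodes the shared signalling subunit. Probe set 1452843_at had signals of 106, 85.5 and 127 in controls and 102, 110 and 129 with KIAA1718 shRNA1. The difference was -0.03 (95% interval -0.28 to 0.22, limma adjusted p = 0.932). The other 3 probe sets of Il6st lay at -0.18, 0.02 and -0.08, with overlapping groups in each.

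Jak1, the kinase, was the furthest of the receptor and kinase genes. Probe set 1433805_at had signals of 140, 174 and 225 in controls and 127, 156 and 155 with KIAA1718 shRNA1. As deposited the groups overlapped, and after normalization every KIAA1718 shRNA array was below every control, as held for 13.4% of all genes. The difference of -0.40 ± 0.13 had a 95% interval of -0.68 to -0.11 and did not pass (limma adjusted p = 0.122). The 2 other probe sets of Jak1 were at -0.24 and -0.20 (adjusted p of 0.420 and 0.571), and with the fibroblast mean as a covariate the brightest was at -0.22.

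Stat3, the transcription factor, had the smallest difference of the 10 genes by brightest probe set, though not with all its tested probe sets averaged (-0.11, against 0.0448 for Lifr). Probe set 1426587_a_at had signals of 270, 191 and 364 in controls and 276, 261 and 360 with KIAA1718 shRNA1. The KIAA1718 shRNA arrays lay within the control range. The difference was -0.0015 (95% interval -0.31 to 0.30, limma adjusted p = 0.997). The second probe set, 1460700_at, was at -0.20 (95% interval -0.47 to 0.07, adjusted p = 0.432), and the 2 dim ones were at -0.09 and -0.16. The 4 probe sets did not agree closely, but none of the 4 passed under any of the alternatives in which it was tested. In all, 11 of the 14 tested probe sets of the receptor and kinase genes were below 0.

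Among the targets, Mras, a small GTPase related to Ras, moved most. Its brighter probe set, 1449590_a_at, had signals of 103, 98.8 and 129 in control replicates 1, 2 and 3 and 46.0, 43.9 and 49.1 in the KIAA1718 shRNA replicates. The groups were far apart, and the 3 KIAA1718 shRNA arrays lay close together (SD of 2.61). The difference was -1.12 (95% interval -1.38 to -0.87, limma adjusted p = 0.000568). Since 16 is added to signals of this size, the value understates the change: with a pseudocount of 1 it was -1.36 (adjusted p = 0.000864). The second probe set, 1453419_at, had signals of 54.3, 83.8 and 85.7 in controls and 42.3, 34.0 and 43.8 with KIAA1718 shRNA1. It fell by 0.79 ± 0.16 (adjusted p = 0.0207), again with groups that did not overlap. Its call was less firm, being lost in 7 of 15 alternatives. It did not pass with the fibroblast mean as a covariate (-0.65, adjusted p = 0.123), or without control replicates 2 or 3 (adjusted p of 0.0626 and 0.0879), or without KIAA1718 shRNA replicates 2 or 3 (0.0734 in each). In a bulk sample, fewer cells of a type and less RNA per cell cannot be told apart.

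Bcl3, an atypical inhibitor-of-NF-kappa-B family protein that works as a transcriptional co-regulator, had 1 probe set, 1418133_at. Its signals were 206, 240 and 259 in controls and 162, 120 and 128 with KIAA1718 shRNA1. The highest KIAA1718 shRNA array, replicate 1, was still below the lowest control, also replicate 1. The difference was -0.86 (95% interval -1.18 to -0.54, limma adjusted p = 0.00954). Between arrays of equal number it was -0.45 for number 1, -1.17 for number 2 and -0.96 for number 3, an uneven spread when set against -1.05, -1.19 and -1.13 for Mras. With the fibroblast mean as a covariate Bcl3 was at -0.87 (adjusted p = 0.0438) and the brighter Mras probe set at -1.15 (adjusted p = 0.00390), neither of them smaller. The second Mras probe set did become smaller, at -0.65 against -0.79, and did not pass.

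Socs3, the feedback inhibitor of the receptor, lay just outside the threshold. Probe set 1455899_x_at had signals of 805, 686 and 865 in controls and 667, 677 and 707 with KIAA1718 shRNA1. The deposited groups overlapped by 1 control, replicate 2, the array with the lowest median signal, and did not overlap after normalization. The difference was -0.31 ± 0.08 (95% interval -0.48 to -0.14, limma adjusted p = 0.0529). With the fibroblast mean as a covariate it was at -0.38 (adjusted p = 0.109). Fitted with the pairing by replicate number, the adjusted p was 0.0366, by which rule 3.78% of all genes were lower. Between arrays of equal number Socs3 was at -0.32, -0.30 and -0.31. The suffix _x_at marks probe sets holding oligonucleotides that can match other transcripts; the probe set without that mark, 1416576_at, was at -0.38 (adjusted p = 0.179) and the remaining one, 1456212_x_at, at -0.33 (adjusted p = 0.141). All 3 estimates were thus close to each other and well short of the Mras value, and in the fit without pairing none passed; the brightest did with the lowest 60% of probe sets by signal left out (adjusted p = 0.0438).

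Junb, a subunit of the AP-1 transcription factor, had signals of 72.7, 43.7 and 84.4 in controls and 66.9, 52.4 and 70.2 with KIAA1718 shRNA1. Replicate 2 was the lowest of each group. The difference was -0.14 (95% interval -0.49 to 0.20, limma adjusted p = 0.685), an interval that holds both no change and a fall of the size of Socs3.

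The serine/threonine kinase genes Pim1 and Pim3 did not pass either. Pim1 (1435458_at) had signals of 228, 160 and 183 in controls and 197, 197 and 200 with KIAA1718 shRNA1, a difference of -0.08 (95% interval -0.39 to 0.24, limma adjusted p = 0.831). The KIAA1718 shRNA arrays lay within the control range. Pim3 (1437100_x_at) had signals of 1089, 911 and 1129 in controls and 1001, 1201 and 1005 with KIAA1718 shRNA1, a difference of -0.07 (95% interval -0.27 to 0.13, limma adjusted p = 0.731). Its probe set without the _x_at mark, 1451069_at, was at -0.25 (95% interval -0.67 to 0.16), and the third, at a control mean of 6.24, was too dim to be tested.

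Pim2 is the third kinase of the family. It had signals of 126, 94.4 and 143 in controls and 258, 267 and 364 with KIAA1718 shRNA1. It rose by 1.06 ± 0.13 (limma adjusted p = 0.00136), in a fit by which 2.68% of all genes were higher. Pim2 also passed in 16 of 16 alternatives. The log2 ratio of Pim2 to Pim1 on each array changed by 1.13 and that of Pim2 to Pim3 by 1.13, without overlap of the groups. The exact permutation p was 0.1 in each case (two-sided), the smallest that 3 against 3 arrays allow, and 0.125 when adjusted over 5 such ratios. The other 3 ratios set a target against Stat3: those of Mras and Bcl3 changed by -1.12 and -0.86 without overlap (exact p = 0.1, adjusted 0.125), and that of Socs3 by -0.31 with overlapping groups (exact p = 0.3). These 5 ratios were picked after the values had been seen. Stat3 itself differed by -0.0015, so the 3 ratios to Stat3 nearly repeat the differences of the targets and test nothing further.

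**Figure D2:**
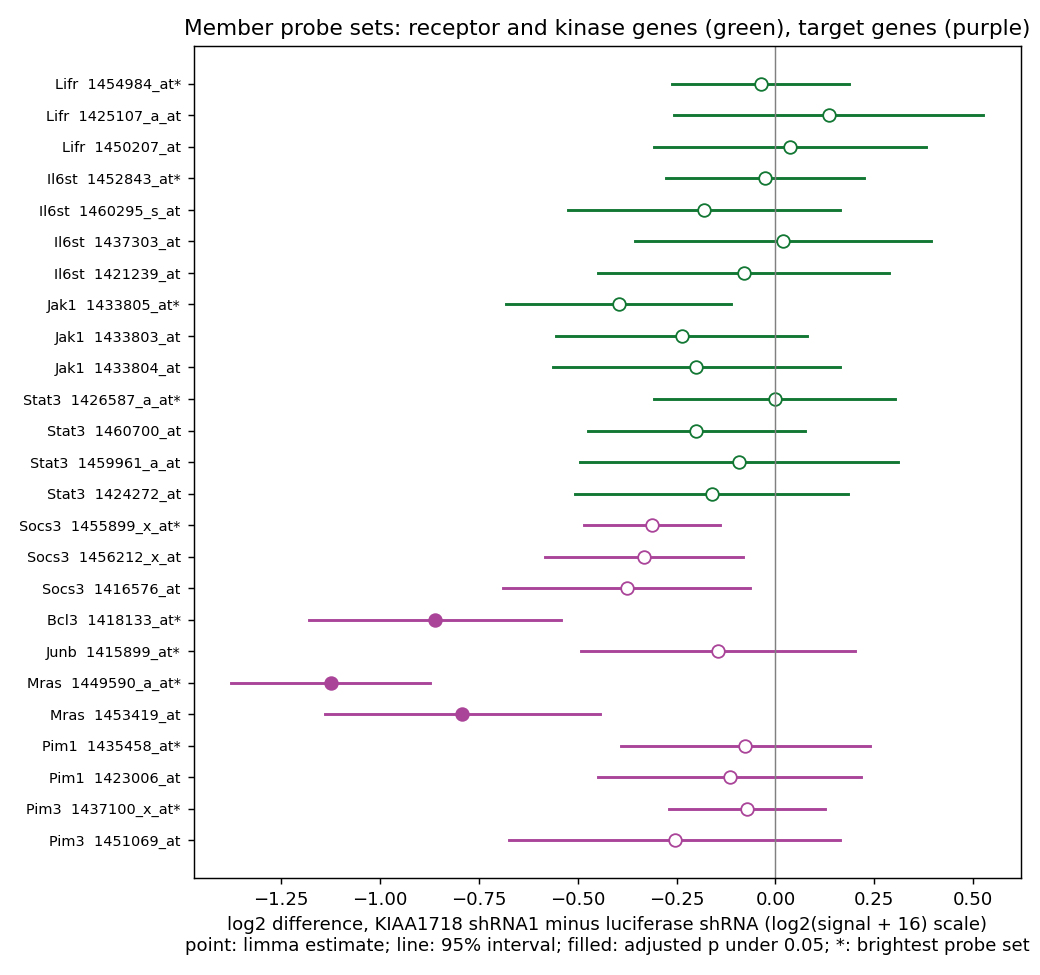
Log2 difference (x axis, KIAA1718 shRNA1 minus luciferase shRNA) of the 25 tested probe sets, with 95% intervals from limma, receptor and kinase genes in green and targets in purple; filled points passed the threshold. The 3 filled points are Bcl3 and both Mras probe sets. All 11 target probe sets lie below 0, against 11 of 14 of the receptor and kinase genes. They come from 6 and 4 genes, and probe sets of 1 gene are not separate observations. By brightest probe set, 6341 of all 12740 genes were below 0.

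Set side by side by role, the 4 receptor and kinase genes had a median difference of -0.03 (range -0.40 to -0.0015) and the 6 targets one of -0.23 (range -1.12 to -0.07), while the median of all genes was 0.00113. A median below 0 was not particular to the targets. The cell type marker lists had medians of -0.34 (fibroblast), -0.45 (primitive endoderm) and -0.16 (embryonic stem cell). After normalization the groups did not overlap, with KIAA1718 shRNA1 lower, for 1 of the 4 and 3 of the 6 genes, against 13.4% of all genes. All 10 estimates were below 0, as were those of 6341 of all 12740 genes. For Lifr, Il6st, Stat3, Pim1 and Pim3, however, the sign turned with unscaled signals, under which the median of all genes was 0.11. Relative to that shift, Lifr at 0.11 and Il6st at 0.09 lay at the median of all genes and Stat3 at 0.14 slightly above it. Unscaled, the medians of the 2 roles were 0.10 and -0.12.

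**Figure D3:**
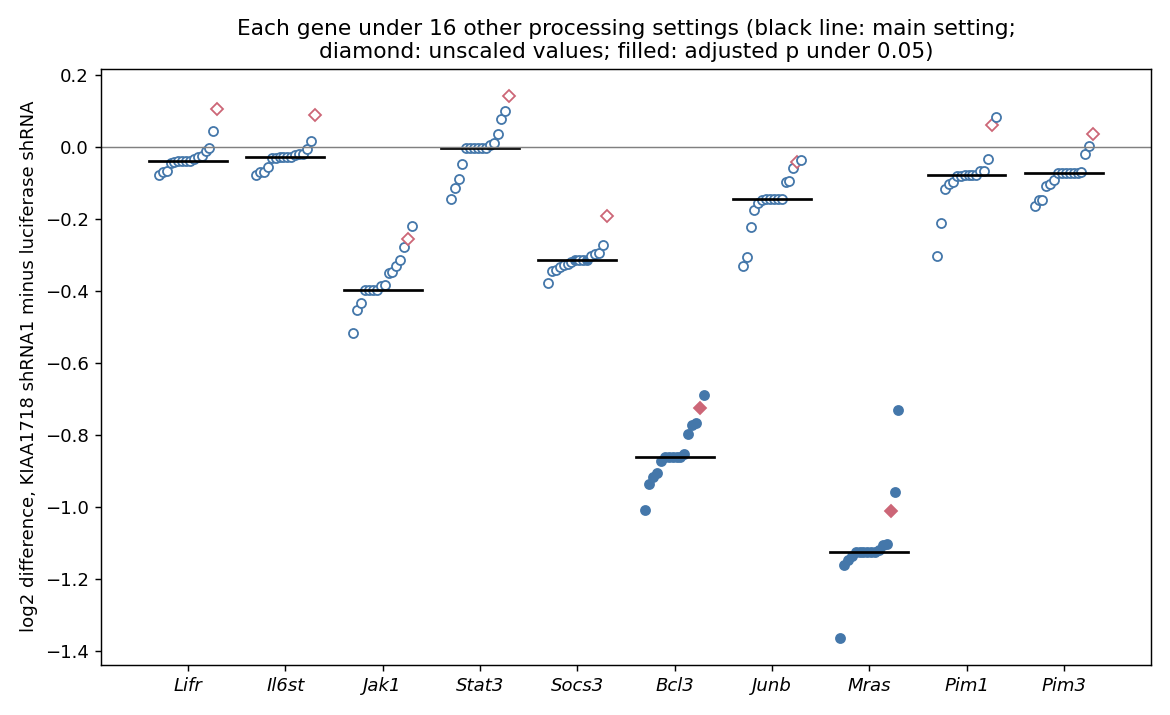
Log2 difference (y axis) of the brightest probe set of each gene under 16 alternative settings, as points ordered by value, with the main setting as a black line, unscaled signals as a diamond and calls filled. Mras (-1.36 to -0.73) and Bcl3 (-1.01 to -0.69) stay below the rest and filled throughout, Socs3 (-0.38 to -0.19) is filled in 2 settings, and the points of Stat3 (-0.14 to 0.14) lie on both sides of 0.

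Which array was lowest or highest for these genes changed with normalization, and was not counted over all genes. Control replicate 2, with the lowest median signal, was the lowest of the 6 arrays for 6 of the 10 genes as deposited, and control replicate 3, with a median of 12.9, was the highest for 6. After normalization the lowest array was KIAA1718 shRNA replicate 2 or 3 for 3 genes each and the highest was a control for all 10, most often replicate 1 (5 genes) or 2 (4 genes). Arrays with the same number differed downward in all 3 pairs for Jak1, Socs3, Bcl3, Mras and Junb, though Junb, at -0.21, -0.000494 and -0.22, barely did so in pair 2. How often this held over all genes was not counted either.

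Other genes of the pathway were taken from lists by role. Of 9 tested cytokines and receptors of the LIF and interleukin 6 family none passed (limma; 2 had an unadjusted p under 0.05), and the median was -0.12. Lif itself was dim, with signals of 12.5, 12.5 and 14.0 in controls and 16.6, 10.1 and 19.6 with KIAA1718 shRNA1, and differed by 0.01 (adjusted p = 0.979). Osmr, the receptor of the related cytokine oncostatin M, was at -0.44 (adjusted p = 0.249). Its signals of 23.7, 43.4 and 56.4 in controls and 17.5, 29.6 and 39.8 with KIAA1718 shRNA1 were lowest in replicate 1 of both groups, as was the mean of the fibroblast markers, and with that mean as a covariate Osmr was at -0.09. The gene of oncostatin M, Osm, was at 0.34 from a control signal of 8.20 (adjusted p = 0.258), with groups that were apart as deposited and overlapped after normalization.

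Of 8 other tested JAK and STAT genes none passed (limma; 1 had an unadjusted p under 0.05), with a median of -0.08. Nearest were Stat6, which transmits interleukin 4 signals, at -0.39 (adjusted p = 0.0720), and Stat5a at 0.19 (adjusted p = 0.479). Stat6 was below every control on all 3 KIAA1718 shRNA arrays after normalization, as was Jak1. Of 17 tested regulators, which included the other SOCS and PIAS genes, phosphatases and adaptors, none passed (limma; 4 had an unadjusted p under 0.05), and the median was 0.05. Socs1, a further feedback inhibitor, was at 0.55 (adjusted p = 0.120) from control signals of 9.28, 0.595 and 6.78 to 12.9, 20.5 and 15.5, the opposite side from Socs3; from so low a level its size ran from 0.19 to 1.63 across the alternatives. Socs4, of the same family, was at -0.36 (adjusted p = 0.0958). Gab1, an adaptor that links the receptor to ERK signalling, was at 0.38, with signals of 819, 609 and 730 in controls and 1059, 918 and 1056 with KIAA1718 shRNA1 (adjusted p = 0.0813, and 0.0186 when equal numbers were treated as pairs); with the fibroblast covariate it was at 0.20 (adjusted p = 0.414).

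Of 22 further genes known as targets of Stat3 or LIF, 6 fell, none rose and 16 did not pass, with a median of -0.15; over all genes 2.19% were lower and 2.68% higher. Tbx3, a transcription factor of naive cells, had signals of 196, 223 and 311 in controls and 83.2, 76.7 and 62.6 with KIAA1718 shRNA1 and fell by 1.63 ± 0.15 (limma adjusted p = 0.000349). Tfcp2l1, a direct target that can stand in for Stat3 in self-renewal, had signals of 347, 381 and 409 against 237, 111 and 182. Klf4, a further direct target, had 906, 1032 and 1280 against 640, 593 and 594. Klf5 had 818, 770 and 1034 against 622, 440 and 605 and fell by 0.75 ± 0.13 (adjusted p = 0.00951). In each of these 4 the groups were apart, as held after normalization for 13.4% of all genes in the lower direction. Gbx2 and Myc also fell, by 0.55 and 0.46, but did not pass with the fibroblast covariate (-0.56 and -0.40, adjusted p of 0.120 and 0.182), under which the other 4 did, and passed in only 7 and 6 of 16 alternatives, whereas Tbx3 and Klf4 passed in all 16 and Tfcp2l1 and Klf5 in 14. Without control replicate 3 only Tbx3 and Klf4 of the 22 passed. Among those not past the threshold were the immediate-early gene Egr1 at 0.36 (adjusted p = 0.224), the pluripotency gene Nanog at -0.42 (adjusted p = 0.158), Ccnd1 at -0.13 and the survival gene Mcl1 at -0.09. Paired by replicate number, Egr1 had an adjusted p of 0.0350 and Nanog one of 0.0495. With the fibroblast covariate Egr1 was at 0.17 (adjusted p = 0.680) and Nanog at -0.17 (adjusted p = 0.628). Egr1 was at 0.20 without KIAA1718 shRNA replicate 1, and Nanog at -0.27 without control replicate 3 and at -0.62 without control replicate 1, where it passed (adjusted p = 0.0195). These lists, like the 10 genes, were drawn up with earlier results known.

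**Figure D4:**
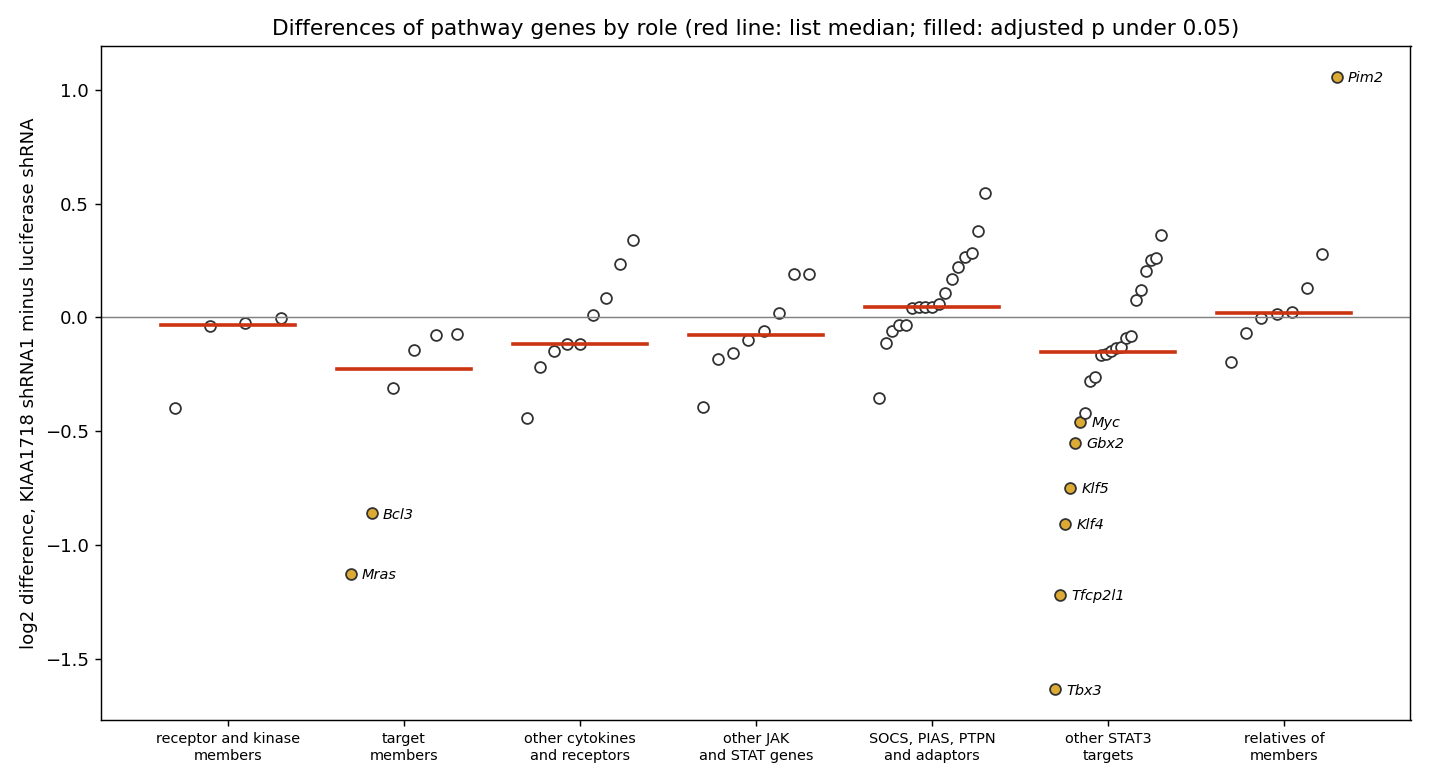
Log2 difference (y axis, KIAA1718 shRNA1 minus luciferase shRNA) of the brightest probe set of each gene, by role along the x axis, with the median of each list as a red line; filled points passed the threshold. Filled points below 0 occur in the 2 columns of targets, from Tbx3 at -1.63 to Myc at -0.46, and the 1 filled point above 0 is Pim2 at 1.06.

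Of the 8 tested relatives of the members (Jun, Ras and NF-kappa-B family genes with Pim2), Pim2 alone passed, and the Ras family genes Nras, Rras and Rras2 were at 0.28, 0.13 and 0.01, against -1.12 for Mras. Over the 6 arrays, the normalized values most like those of Socs3 among 12739 other genes were those of Fam122b (Pearson r = 0.997), Grtp1 (0.996) and Gabarapl2 (0.995). Most like Stat3 were Rprd1b (0.983), Tbc1d1 (0.973) and Sdf2l1 (0.967). With 6 points that share their arrays and so many genes to choose from, such values describe these arrays only. The genes nearest to Stat3 differed between groups by 0.02 to 0.10, whereas Grtp1 at -0.89 and Gabarapl2 at -0.48 fell (limma adjusted p of 0.00828 and 0.0200) and Fam122b at -0.28 did not pass (0.215).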

How the data were processed

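The authors deposited a linear signal intensity for each probe set on 6 arrays; GCOS is the software named in the submitters' processing notes, with algorithm and settings not given in the sources used here. Groups and replicate numbers come from the sample titles. The 64 control probe sets were dropped, intensities were quantile normalized between arrays, 16 was added and log2 taken. Probe sets in the lowest 40% by mean signal were left out. limma 3.58.1 in R 4.3.3 (lmFit, eBayes with trend) gave two-sided tests with Benjamini-Hochberg adjustment over 27022 probe sets; the fit was tested on simulated data. Symbols came from GEO's platform annotation, updated through Entrez numbers (34945 probe sets with 1 symbol, 932 with several, 9160 unnamed here). Where a gene had several tested probe sets, the brightest over all arrays stands for it. The intensities come without a genome build; promoter positions are RefSeq's.

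The 10 genes, the lists, the tests and the alternatives were chosen with earlier results of these data known. Named beside the 10 are, from each list, the genes past the threshold (at most 4, by size of change), or, where fewer than 2 passed, the 2 with the smallest p; also Pim2, Lif, Osmr, Klf4, Tfcp2l1, Kdm7a and the 3 genes most like Socs3 and Stat3. Pou5f1, Sox2, Zfp42, Col1a1, Socs1, Gbx2, Myc, Egr1, Ccnd1, Mcl1, Nanog, Rras and Rras2 were named after their values were seen. The deviations of equal-numbered arrays from their group means had correlations of 0.202, 0.124 and 0.129, and those of unlike numbers -0.150 to 0.0246; each being over 0.1, numbers were treated as pairs, from the data and not from a label, in an alternative fit with replicate number as a block.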

Additional observations from a re-analysis of the deposited data

How the results depend on the processing

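Each of the 10 genes was refitted under 16 alternatives, and 144 of 160 values kept their direction and side of the threshold. Mras and Bcl3 passed in all 16 (adjusted p up to 0.00742 and 0.0496), and the count of 2 genes became 3, with Socs3, under the replicate block (adjusted p = 0.0366) and with the lowest 60% left out (0.0438). Treating equal numbers as pairs changed no other call among the 10. Directions reversed only for genes that did not pass. With unscaled intensities Lifr was at 0.11, Il6st at 0.0907, Stat3 at 0.14, Pim1 at 0.0636 and Pim3 at 0.0362. With a trimmed-mean scaling Stat3 was at 0.0129, and with all probe sets of a gene averaged Lifr was at 0.0448. Without 1 array, Il6st ran from -0.0778 to 0.0176, Stat3 from -0.14 to 0.10, Pim1 from -0.21 to 0.0833 and Pim3 from -0.15 to 0.00508. The receptor and kinase median (-0.03) was 0.10 unscaled, -0.0904 with probe sets averaged and -0.11 to -0.0048 without 1 array. The target median (-0.23) was -0.12 unscaled and -0.35 with the fibroblast covariate. Of the 56 further pathway genes, 6 passed, 9 with the replicate block (Gab1, Egr1 and Nanog added), 2 without the low-signal filter (more probe sets were tested) and 2 to 6 without 1 array, 2 being without control replicate 3. Over all genes 620 passed, 1000 with the block, 201 with the fibroblast covariate, 197 without the filter, 388 without the intensity trend and 161 to 525 without 1 array. The 3 arrays of each group limit the precision, and the genes that did not pass are not shown to be equal. Detection calls were not used here.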
